A study of Mus musculus with 2 samples.

Results

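The genes described here are 9 members of the retinoic acid pathway: Stra6, Dhrs3, Aldh1a2, Crabp1, Crabp2, Rara, Rarb, Rarg and Cyp26a1. They were chosen by name, for their place in the uptake, synthesis, binding, sensing and breakdown of retinoic acid, and all 9 were found among the 24532 genes of the table. The study asked how O-GlcNAcylation (attachment of the sugar GlcNAc) of the transcription factor Sox2 at a threonine bears on mouse embryonic stem cells (ESCs), and polyA RNA was sequenced from 2 genotypes. E14 is the parental male mouse ESC line, with both Sox2 alleles wild type, grown in serum with leukaemia inhibitory factor (LIF). E14-Sox2TA/WT is a clone of E14 edited by CRISPR/Cas9 with a donor of single-stranded DNA, in which 1 Sox2 allele carries T258A, that threonine replaced by alanine, and the other allele is wild type. This clone was selected and usually kept in serum and LIF with the inhibitors PD0325901 and CHIR99021 (2i), and it was used at passages after 2i was withdrawn. Genotype, clone and culture history therefore cannot be told apart, and counts per gene cannot show the base change itself.

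With 1 library per genotype, the spread between cultures is unknown and no test of a difference could be made. The E14 library held 60263536 reads assigned to genes and the E14-Sox2TA/WT library 44609228. Levels are the deposited TPM, each with its reads and a 95% exact Poisson counting interval. TPM is transcript abundance as a share of the library's total, which corrects for transcript length and so allows genes to be compared. Ratios of 2 levels have a 95% exact (Clopper-Pearson) counting interval, and ratios of summed TPM a normal approximation of the counting error. These intervals, and the limit of 3 reads used for a count of 0, cover counting error only, since amplified reads are not independent molecules. All 8 ESC markers had a TPM of at least 10 in both libraries, with a lowest value of 289.6 in E14 and 251.3 in E14-Sox2TA/WT. Of these 8, 5 were lower and 3 higher in the mutant, and Nanog, a core pluripotency factor, was past 2-fold lower at 526.9 and 251.3 TPM (log2 ratio -1.07). The part of this difference in the members' levels was not tested. In bulk RNA, fewer cells of a type and less RNA per cell cannot be told apart.

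Retinol (vitamin A) enters cells through Stra6 and is oxidised to retinal and then, by retinaldehyde dehydrogenases such as Aldh1a2, to retinoic acid, while Dhrs3 returns retinal to retinol. Crabp1 and Crabp2 bind retinoic acid in the cytoplasm, the receptors Rara, Rarb and Rarg act with RXR partners on DNA, and Cyp26a1 oxidises retinoic acid for removal. Retinoic acid drives ESCs out of self-renewal, and several pathway genes, among them Cyp26a1, Rarb and Stra6, are themselves induced by it.

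The 9 members spanned a wide range of levels, and their order differed between the libraries. Rarg was the most abundant member in both, at 266.9 TPM in E14 and 174.7 TPM in E14-Sox2TA/WT, and Rarb the least, at 0.189 and 0 TPM. In E14 the order below Rarg was Crabp1, Rara, Crabp2, Dhrs3, Stra6, Aldh1a2 and Cyp26a1. In E14-Sox2TA/WT it was Rara, Crabp1, Crabp2, Cyp26a1, Dhrs3, Aldh1a2 and Stra6. Rara thus stood above Crabp1 only in the mutant, Cyp26a1 stood above Dhrs3, Stra6 and Aldh1a2 only in the mutant, and Stra6 stood above Aldh1a2 only in E14. The counting intervals of neighbours in either order did not overlap, although only the error of counting is in them. Among all genes of the table, Rarg ranked 542 by TPM in E14 and 949 in the mutant, and Crabp1 ranked 2162 and 5182.

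**Figure D1:**
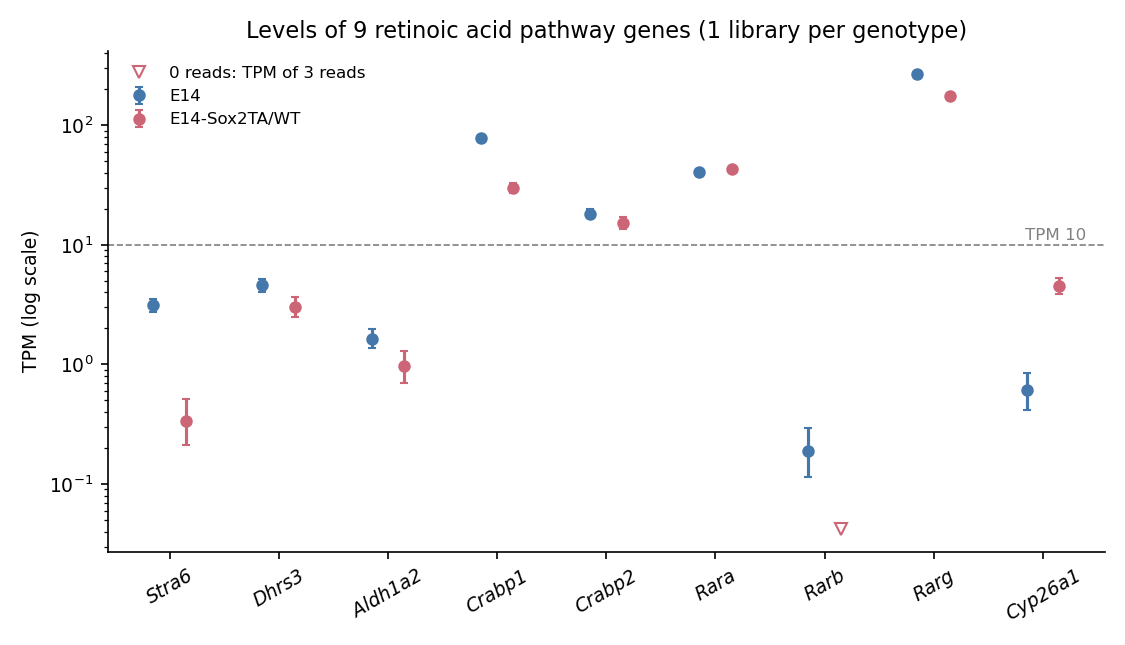
TPM of the 9 retinoic acid pathway genes in the E14 and E14-Sox2TA/WT libraries, on a log axis, with 95% counting intervals as bars, a dashed line at 10 TPM and an open triangle at the TPM of 3 reads. Rarg lies highest in both at 266.9 and 174.7 TPM, Stra6 and Cyp26a1 exchange places at the low end, and Rarb has no read in E14-Sox2TA/WT.

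Of the members with reads in both libraries, Stra6 had the lowest ratio. Stra6, the membrane receptor that takes up retinol from its carrier Rbp4 (chr9:58063793-58154004, mm10), had 292 reads in E14 and 22 reads in E14-Sox2TA/WT. These correspond to 3.11 TPM (2.77 to 3.49) and 0.338 TPM (0.212 to 0.512). The Stra6 level was 9.20-fold lower in the mutant (counting interval 5.96 to 14.9; log2 ratio -3.20). Both levels lie under the TPM of 10 that was used as the filter.

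The enzymes that set retinal and retinoic acid also had lower levels, by less than 2-fold. Dhrs3, a retinal reductase (chr4:144892534-144928209), had 242 and 110 reads, or 4.58 TPM (4.02 to 5.19) and 3.03 TPM (2.49 to 3.65). The ratio was 1.51-fold (1.20 to 1.91). Aldh1a2, which makes retinoic acid in the early embryo (chr9:71215789-71296243), had 118 and 46 reads, or 1.64 TPM (1.36 to 1.97) and 0.961 TPM (0.704 to 1.28). It was 1.71-fold lower (1.21 to 2.46). For both genes the counting intervals of the 2 libraries were separate, and both genes were under 10 TPM.

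Of the binding proteins, Crabp1 fell and Crabp2 stayed close to its E14 level. Crabp1 (chr9:54764748-54773110) had 1987 reads in E14 and 505 in E14-Sox2TA/WT, or 78.7 TPM (75.3 to 82.3) and 29.8 TPM (27.3 to 32.6). It fell 2.64-fold (2.39 to 2.92; log2 ratio -1.40, -1.54 to -1.26), and 2.07% of the genes with a TPM of at least 10 had a lower ratio. With the trend of the ratios over transcript GC content and length removed, the log2 ratio of Crabp1 was -0.96, which is within 2-fold. Crabp2, which delivers retinoic acid to the receptors in the nucleus (chr3:87948693-87953372), had 517 and 291 reads. Its levels were 18.2 TPM (16.7 to 19.9) and 15.3 TPM (13.6 to 17.2), a log2 ratio of -0.25 (-0.46 to -0.04) that turned to 0.02 with the same trend removed. The makeup of the pair therefore differed between libraries. In E14 there was 4.32 times as much Crabp1 as Crabp2 by TPM (3.92 to 4.77), and in the mutant 1.95 times as much (1.68 to 2.26). The summed TPM of both was 97.0 in E14 and 45.1 in E14-Sox2TA/WT, a log2 ratio of -1.10 (-1.22 to -0.99). Fabp5, a fatty acid-binding protein that can also carry retinoic acid, had 36.6 and 52.6 TPM, so that its TPM ratio to Crabp2 was 2.01 in E14 and 3.44 in the mutant.

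The nearest expressed genes on either side of Crabp1 had smaller ratios of opposite sign. Wdr61, 30199 bases away, had 130.8 and 100.2 TPM (log2 ratio -0.38). Ireb2, the iron-responsive regulator 89548 bases away on the other side, had 82.0 and 108.2 TPM (log2 ratio 0.40).

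**Figure D2:**
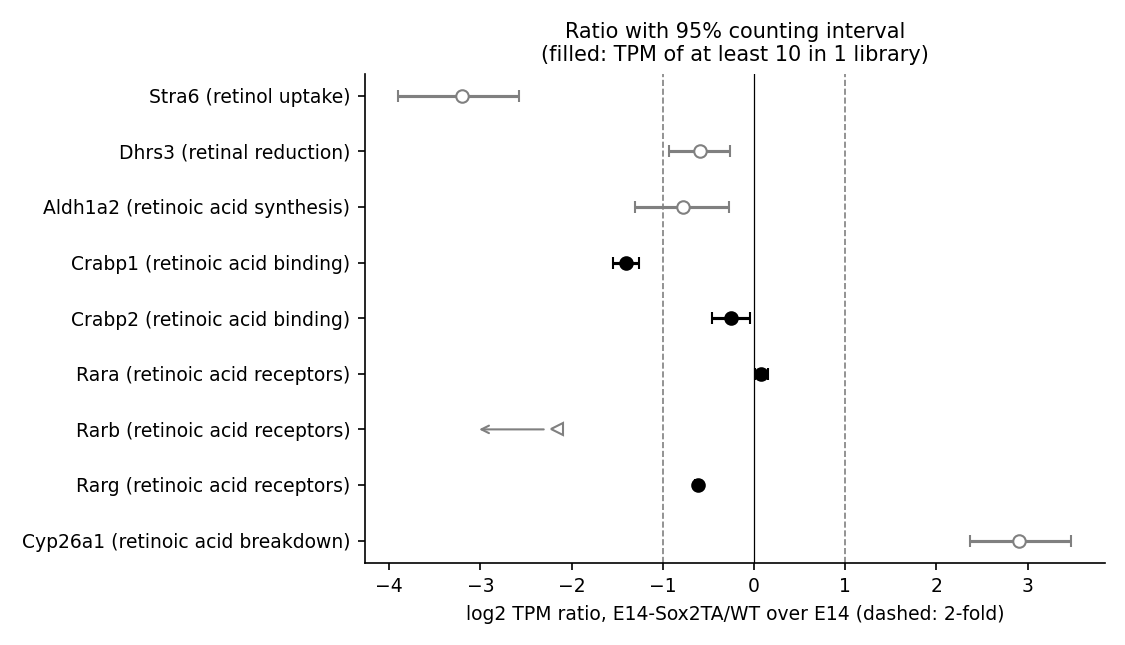
Log2 ratio of TPM, E14-Sox2TA/WT over E14, for each member, with 95% counting intervals, filled points for a TPM of at least 10 and dashed lines at 2-fold. Cyp26a1 is far to the right at 2.90, Stra6 far to the left at -3.20, Crabp1 at -1.40 and Rara near 0, and Rarb is drawn as a bound because it had no read in the mutant.

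The 3 retinoic acid receptors each had their own level and ratio. Rarg (chr15:102234938-102257522) had 23289 reads in E14 and 10200 in E14-Sox2TA/WT, or 266.9 TPM (263.5 to 270.4) and 174.7 TPM (171.3 to 178.1). Its ratio was 1.53-fold lower (1.49 to 1.56; log2 -0.61), within the 2-fold threshold, and 9.65% of the genes with a TPM of at least 10 had a lower one. Rara (chr11:98927800-98974942) had 4122 and 2922 reads, or 40.9 TPM (39.6 to 42.1) and 43.2 TPM (41.7 to 44.8). The log2 ratio of Rara was 0.08 (0.01 to 0.15), which equals the median of 0.08 over all 9094 genes with a TPM of at least 10. Its sign was not kept by every scaling, with -0.06 on the deposited FPKM and -0.00 after centring on that median.

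Rarb, the receptor gene best known as a direct target of retinoic acid (chr14:16430839-17082331), had 20 reads in E14 and 0 in E14-Sox2TA/WT. Its level was 0.189 TPM (0.115 to 0.291) in E14. In the mutant, 3 reads would correspond to 0.0422 TPM, and Rarb was at least 4.47-fold lower against that limit of 3 reads in the library. Rarb shares exonic bases with Top2b, a gene on the opposite strand. Whether the counting used strand is not given in the sources used here, so reads of the pair cannot be assigned with certainty. Top2b had 34.1 TPM in E14 and 58.1 TPM in the mutant. The other 8 members share no exonic bases with another gene in GENCODE.

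By TPM the receptor pool was mostly Rarg in both libraries. The 3 receptors summed to 308.0 TPM in E14 and 217.9 TPM in E14-Sox2TA/WT, a log2 ratio of -0.50 (-0.53 to -0.47). Rarg made up 86.7% of this sum in E14 and 80.2% in the mutant, Rara 13.3% and 19.8%, and Rarb 0.0612% and 0%. The TPM ratio of Rarg to Rara was 6.53 (6.32 to 6.76) in E14 and 4.04 (3.88 to 4.21) in the mutant. The genes whose pair of levels lay nearest to that of Rarg, by distance in log2(TPM + 0.1) over the 2 libraries, were Smdt1 (263.3 and 182.0 TPM), Slc3a2 (280.6 and 170.9 TPM) and Slc38a4 (257.2 and 166.4 TPM).

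**Figure D3:**
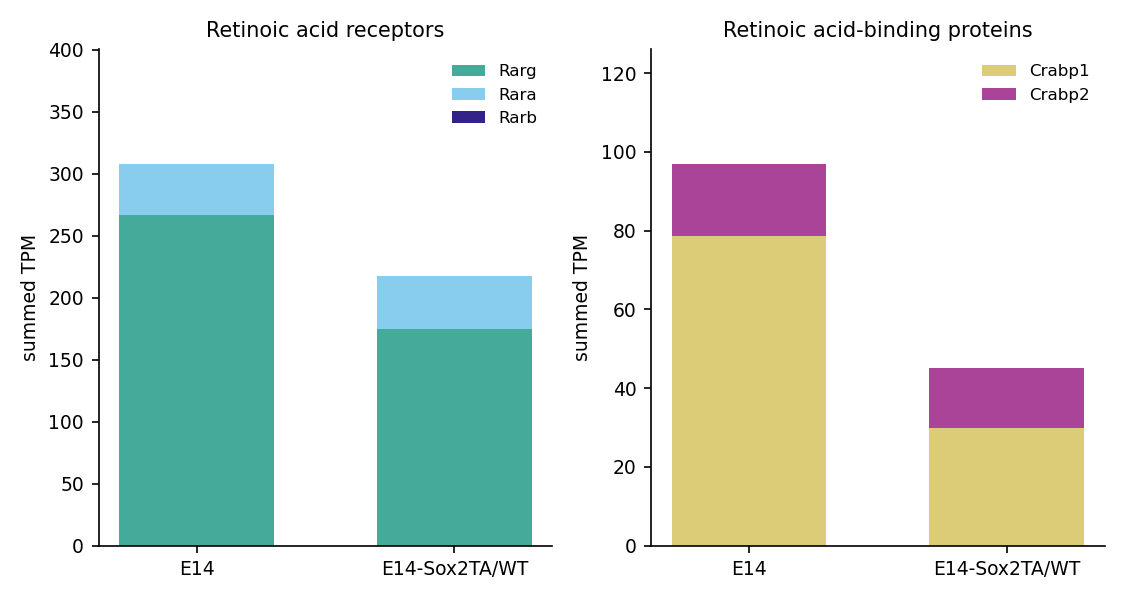
Stacked TPM of the 3 receptors and of the 2 Crabp genes in each library, drawn from 0, with 1 library per genotype. The receptor sum is 308.0 TPM in E14 and 217.9 TPM in E14-Sox2TA/WT, the Crabp sum 97.0 and 45.1 TPM, and Rarb is too small to be seen.

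Cyp26a1, the enzyme that clears retinoic acid (chr19:37697738-37701536), had a higher level in the mutant. It had 34 reads in E14 and 171 in E14-Sox2TA/WT, or 0.605 TPM (0.419 to 0.846) and 4.52 TPM (3.87 to 5.26). The level was 7.47-fold higher in the mutant (5.15 to 11.1; log2 ratio 2.90), still under 10 TPM. Of the genes with a TPM of at least 1, 99.2% had a lower ratio. Set against Aldh1a2, the synthesis enzyme, the balance of transcripts was inverted. There was 2.72 times as much Aldh1a2 as Cyp26a1 by TPM in E14 (1.84 to 4.11) and 0.212 times as much in the mutant (0.150 to 0.296). Cyp26c1, the related enzyme 4418 bases from Cyp26a1, had 6 and 3 reads, too few to give a direction. Cyp26b1, another related enzyme of breakdown, went the other way, with 77 and 25 reads (0.511 and 0.236 TPM). It was 2.17-fold lower in the mutant (1.37 to 3.55), so the higher level of Cyp26a1 was not shared by it.

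Rarb had fewer reads in the mutant and Cyp26a1 more, and their start-site sequences are shown because they share an element. The Rarb direction rests on 20 and 0 reads, which cannot be assigned with certainty because of the overlap with Top2b. Retinoic acid receptors bind pairs of a hexamer, and a direct repeat with 5 bases between the hexamers is called DR5. The hexamers searched were AGGTCA or AGTTCA or GGGTCA or GGTTCA, on both strands, in RefSeq windows of 300 bases (250 before and 50 after each start, GRCm38.p6). A DR5 was found in 32 of 32851 windows (0.0974%) and a single hexamer in 14358 (43.7%). Of the members, 8 had windows (17 in all), Crabp2 having no entry, and 6 of the 17 held at least 1 hexamer. The windows with a DR5 were 1 of Rarb and 1 of Cyp26a1, printed 5′ to 3′ on the strand of the gene with the hexamers of the DR5 in capitals. The Rarb window is chr14:16575427-16575726 on the minus strand, and that of Cyp26a1 is chr19:37697558-37697857 on the plus strand.
Rarb: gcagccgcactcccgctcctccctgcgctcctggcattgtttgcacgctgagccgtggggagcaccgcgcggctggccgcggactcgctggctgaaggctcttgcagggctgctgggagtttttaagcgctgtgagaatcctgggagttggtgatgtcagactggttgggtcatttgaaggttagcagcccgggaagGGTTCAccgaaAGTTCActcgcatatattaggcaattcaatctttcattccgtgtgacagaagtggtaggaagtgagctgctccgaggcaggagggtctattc
Cyp26a1: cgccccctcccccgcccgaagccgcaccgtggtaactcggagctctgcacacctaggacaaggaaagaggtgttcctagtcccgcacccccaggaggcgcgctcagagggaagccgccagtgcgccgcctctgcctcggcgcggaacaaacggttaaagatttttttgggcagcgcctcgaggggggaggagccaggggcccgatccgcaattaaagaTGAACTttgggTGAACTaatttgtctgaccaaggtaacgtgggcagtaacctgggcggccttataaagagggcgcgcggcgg

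Positions here are counted from the start used for each window. Both elements lie inside the gene spans given above, so these starts are not the outermost ends of those spans. In Rarb the element runs from 53 to 37 bases before the start (chr14:16575513-16575529) with both hexamers on the strand of the gene. In Cyp26a1 it runs from 32 to 16 bases before the start (chr19:37697776-37697792), and its hexamers, read as TGAACT here, are the reverse complement of AGTTCA. A DR5 was thus present before a start of Rarb (20 and 0 reads) and of Cyp26a1 (34 and 171 reads). Its part in these levels was not tested. No member window held the repeats with spacings of 1 or 2 bases (DR1 and DR2), which occur in 0.222% and 0.268% of all windows. These are matches of letters, and binding at them was not measured.

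A gene was counted as past the threshold when its TPM ratio was more than 2-fold and its TPM was at least 10 in at least 1 library. By this rule, of the 4 members that passed the filter (Crabp1, Crabp2, Rara and Rarg), 0 were higher, against 4.17% of all 9094 genes that passed, and 1 was lower (Crabp1), against 4.07%. The other 5 members were under the filter. With a TPM of at least 1 in place of 10, 8 members passed, of which 1 was higher (Cyp26a1) against 6.45% of 13729 genes, and 2 were lower (Crabp1 and Stra6) against 9.95%. With so few members, these counts are a description. On the log2(TPM + 0.1) scale, which understates the ratios of low genes, 7 members had a lower and 2 a higher value in the mutant, with a median of -0.61 over the 9. The median over all 18140 genes with a read was -0.01.

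The ratios depended little on how the libraries were scaled, more on the handling of low levels and of transcript composition. Against the deposited TPM, the other scalings moved the ratio of each gene with reads in both libraries by -0.14 to -0.01 on the log2 scale, the former with the deposited FPKM. Over 8 alternative settings the log2 ratio of Stra6 ranged from -3.35 to -1.62, that of Cyp26a1 from 1.78 to 3.11, that of Crabp1 from -1.54 to -0.96 and that of Rarg from -0.76 to -0.40. Among the 9 members, only Crabp2 and Rara changed sign in any of these settings.

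**Figure D4:**
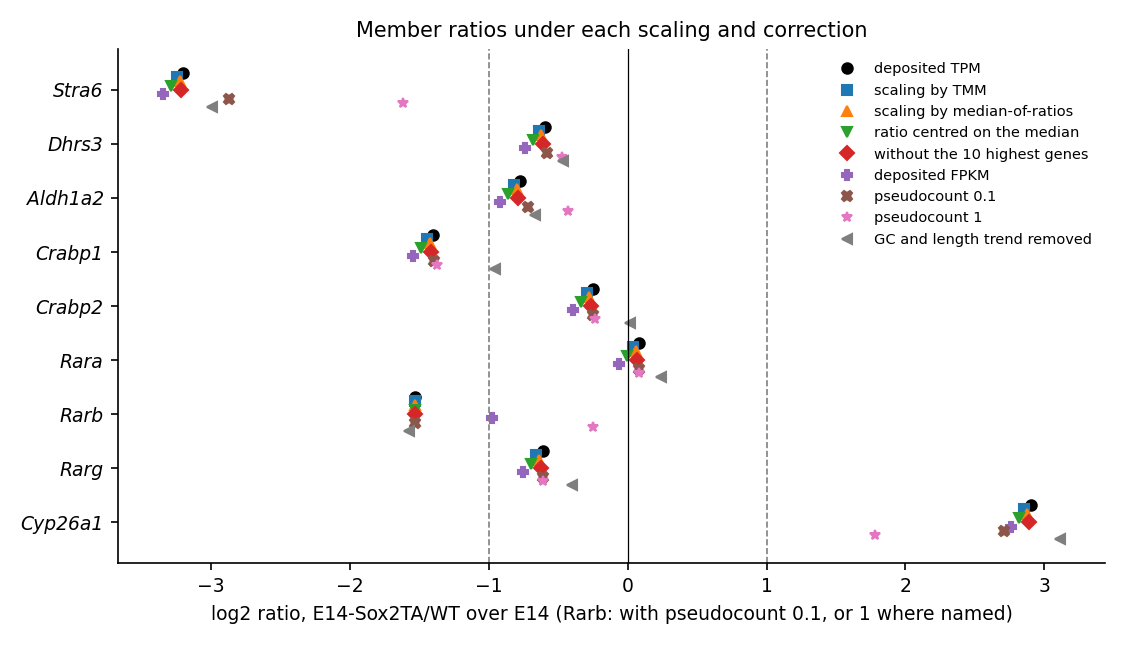
Log2 ratio of each member, E14-Sox2TA/WT over E14, as deposited in TPM and under 8 alternative settings of scaling, pseudocount and transcript composition. Crabp2 (-0.39 to 0.02) and Rara (-0.06 to 0.24) are the members whose points fall on both sides of 0, and Rarb, with 0 reads in the mutant, is shown on a log2(TPM + pseudocount) scale throughout.

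The wider pathway was examined with 57 further genes, of which 54 had a read and 16 had a TPM of at least 10. Of these 16, 4 fell more than 2-fold, against 4.07% of all genes that passed this filter. Another 12 stayed within 2-fold, and 0 rose more than 2-fold, against 4.17%. The 4 reached a TPM of 10 in E14 only, so they entered this count through the library where they were high. With a TPM of at least 1, 34 genes passed, of which 6 were higher (against 6.45%) and 7 lower (against 9.95%). The median log2(TPM + 0.1) ratio of the 54 was -0.03, with 27 genes lower and 27 higher.

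Rbp4, the serum carrier of retinol that Stra6 binds, fell 4.50-fold from 16.7 to 3.72 TPM (491 and 98 reads), whereas Rbp7, an intracellular retinol-binding protein, had 10.7 and 11.3 TPM. Among 12 enzymes that make or interconvert retinol and retinal, 4 passed the filter and none of these was past 2-fold, from Rdh14 at a log2 ratio of -0.39 to Dhrs4 at 0.45. None of Aldh1a1, Aldh1a3, Cyp26b1 and Cyp26c1 passed the filter.

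The RXR partner receptors had unlike ratios. Rxra had 2438 reads in E14 and 1118 in the mutant (log2 TPM ratio -0.55), and Rxrb had 37.8 and 54.6 TPM (log2 ratio 0.53). Both kept their sign under all scalings, and both were within 2-fold. Of the coregulators that passed the filter, the corepressor Ncor1 had the highest ratio at 50.9 and 86.4 TPM (log2 ratio 0.76). The coactivator Ncoa3 had the lowest, at 75.7 and 86.6 TPM (log2 ratio 0.19), and it changed sign, to -0.02, with the GC and length trend removed.

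Of 24 genes known to be induced by retinoic acid, 3 passed the filter. All 3 fell more than 2-fold, against 4.07% of all genes that passed. These 3 reached the filter in E14 only, so they entered this count through the library where they were high. The list was also chosen with earlier results known, so this count is a description. Stra8, the gatekeeper of meiotic entry in germ cells, fell from 197.6 TPM (9054 reads) to 8.40 TPM (258 reads), a ratio of 23.5-fold (log2 ratio -4.56, -4.74 to -4.38). Cdx1, a homeobox gene of the posterior embryo, fell 4.54-fold from 30.2 to 6.66 TPM. Tgm2, a transglutaminase, fell 2.83-fold from 23.5 to 8.28 TPM, and it shares exonic bases with Rprd1b on the opposite strand. These decreases kept their side of the threshold under each scaling.

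The induced genes under 10 TPM held members past 2-fold in either direction. Of 17 with over 3 reads in both libraries, 6 had a TPM more than 2-fold higher in the mutant, against 11.7% of all 6448 genes of such levels. Another 3 were more than 2-fold lower, against 21.8%. Named after their values were seen, the homeobox gene Meis2 had 92 and 200 reads (0.565 and 1.94 TPM). The pioneer factor Foxa1 had 128 and 21 reads (1.27 and 0.297 TPM), and the receptor tyrosine kinase Ret 224 and 55 reads (1.02 and 0.350 TPM).

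**Figure D5:**
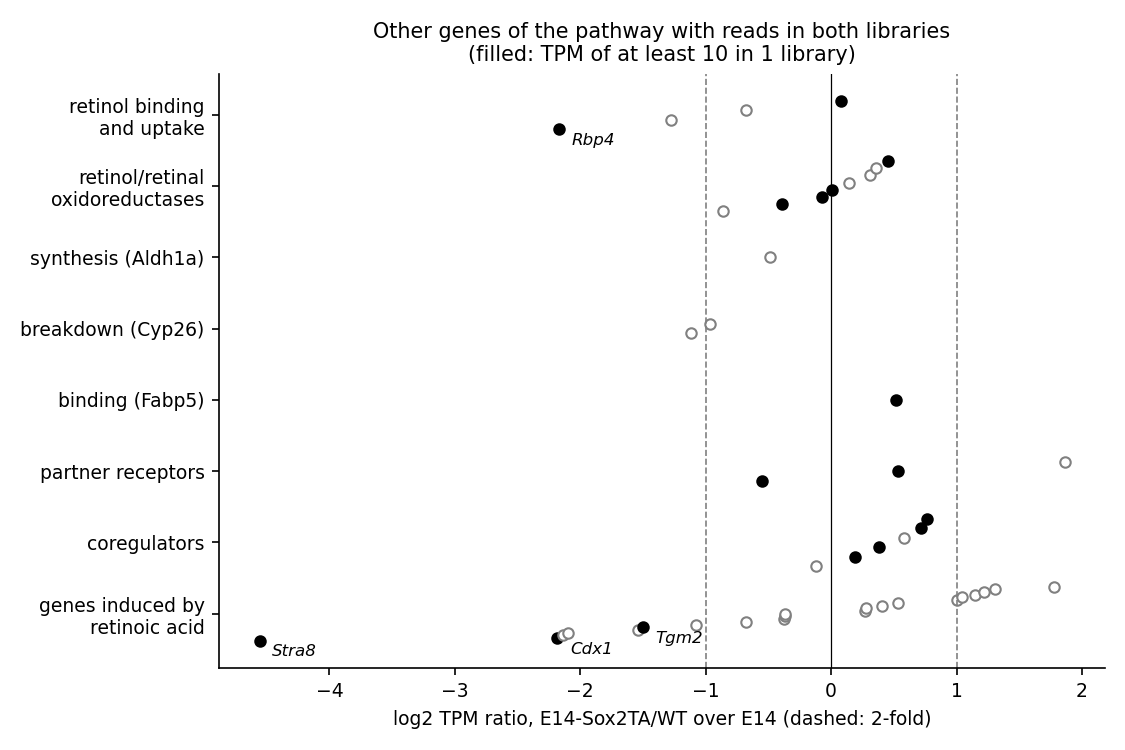
Log2 TPM ratio, E14-Sox2TA/WT over E14, of the wider pathway genes with reads in both libraries, 1 point per gene in a row for each role, filled where the TPM is at least 10 in a library, with dashed lines at 2-fold. Stra8 at -4.56 and Cdx1, Rbp4 and Tgm2 at -2.18, -2.17 and -1.50 lie below the 2-fold line among the genes past the filter. These genes reached a TPM of 10 in E14 only. No gene past the filter lies above the upper line.

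Markers of other cell types also differed between the libraries, in either direction. All 8 primitive endoderm markers were lower in the mutant and none was at 0. Their summed TPM was 117.5 in E14 and 80.6 in E14-Sox2TA/WT, mostly from Lamb1 at 70.6 and 63.2 TPM (log2 ratio -0.16). Dab2 had a log2 ratio of -0.27, Gata4 one of -1.98, and Gata6 had 9.46 and 2.58 TPM. The neural ectoderm list summed to 11.7 and 49.8 TPM, mostly from Nes (6.67 and 36.2 TPM) and Sox1 (3.80 and 10.7 TPM). Of its 8 markers 5 were higher, among them Pax3 (6 and 6 reads) and Neurog2 (2 and 4 reads), too few to give a direction. The other 3, Zic1, Hes5 and Olig2, were lower, with Olig2 at 0 in the mutant. The list for the posterior epiblast and primitive streak, which also holds Cdx1, summed to 39.4 and 58.8 TPM, with 7 of 8 higher. Cdx1, the only lower marker of this list, had 30.2 and 6.66 TPM, so it made up most of the sum in E14 only. The highest ratios were those of Evx1 (2 and 94 reads), Cdx2 (32 and 554 reads) and T (62 and 606 reads). The lowest of the 7 was that of Wnt3 (205 and 290 reads, log2 ratio 1.08). The 8 fibroblast (feeder cell) markers summed to 125.8 and 65.9 TPM, mostly from Fbln1 and Thy1, the 2 that were lower. Another 3 were higher, with Col3a1 at 15 and 151 reads, and Dcn, Lum and Postn had no read in either library. The part of such cells in the levels of Stra6, Rarb, Rbp4, Cyp26a1 and the other members was not tested.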

How the data were processed

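PolyA RNA was sequenced with 1 library per genotype. Per the submitters' processing notes, bcl2fastq 2.20.0, Trimmomatic, HISAT2 2.1.0 and StringTie 2.1.3b were used and the build mm10 is named. The deposited table holds read counts, FPKM and TPM per gene from the authors for both libraries. Strand handling and treatment of reads that map to several places are not given in the sources used here. Deposited TPM ratios were the measure, with Clopper-Pearson 95% counting intervals from the deposited counts. Intervals on single levels were exact Poisson, and those on ratios of summed TPM used a normal approximation. The threshold was 2-fold, applied to genes that reached a TPM of 10 in either library. No test was run. Medians used log2(TPM + 0.1). The alternatives were TMM (edgeR 4.0.16), median-of-ratios size factors (DESeq2 1.42.0), the deposited FPKM, centring, exclusion of the 10 highest genes, pseudocounts of 0.1 and 1, other filters and folds, and removal of GC and length medians in 20 bins. The spacings DR1 and DR2 were added after the data were seen. Python 3.11.15, pandas 2.3.3 and R 4.3.3 were used, and the calculations were tested on simulated data.

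The members and lists were chosen with earlier results of these data known. Named were all 9 members. From the wider list, genes past the filter and 2-fold, and the highest and lowest ratio of each role, were named. Also named were the expressed neighbours of members past the threshold and the 3 genes nearest in level to the most abundant member. Some genes of the wider list are not reported here.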

Additional observations from a re-analysis of the deposited data

How the results depend on the processing

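Of 16 alternative settings, those on low levels moved the counts most. The number of members past 2-fold higher, 0 with the filter, was 1 when the filter was a TPM of 1 and 1 with no filter. The number lower, 1 with the filter, was 2 with a filter of 1 TPM, 3 with no filter, 2 at 1.5-fold, 0 at 3-fold and 0 once the trend over GC content and length was taken out. For the wider genes, 0 were higher, against 6 with a filter of 1 TPM, 1 with a filter of 5 TPM, 10 with no filter and 2 at 1.5-fold. There 4 were lower, against 7 with a filter of 1 TPM and 15 with no filter. The log2 ratio of the summed receptor TPM, -0.50, was -0.54 with TMM, -0.58 after centring, -0.64 with FPKM and -0.30 with the trend removed. That of the summed Crabp TPM, -1.10, was -1.25 with FPKM and -0.72 with the trend removed. The cause was not tested. No paired analysis was possible because each genotype had 1 library, and for the same reason no replicate could be left out. Depth limits Rarb most, with 20 reads and 0.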

Other observations

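The following values were chosen after they were seen. Near the members, several neighbours differed between the libraries. Islr, 2242 bases from Stra6, had 161 reads in E14 and 9 in E14-Sox2TA/WT (log2 TPM ratio -3.65), a ratio close to that of Stra6. Nes, a neural progenitor filament gene 17721 bases from Crabp2, had 6.67 and 36.2 TPM (log2 ratio 2.44), whereas Crabp2 itself was within 2-fold. Itgb7, an integrin gene 1533 bases from Rarg, had 31.6 and 16.6 TPM (log2 ratio -0.93).

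A DR5 of the hexamers used for the members was found in start-site windows of 31 genes, 12 of them in the table and 4 with a TPM of at least 1. Of those 4, Cyp26a1 was past 2-fold higher and Blvrb, a biliverdin reductase, past 2-fold lower, at 127.5 and 42.8 TPM (log2 ratio -1.58). Cfap45 and Syndig1, at log2 ratios of -0.71 and 0.74, were within 2-fold. Hoxb5, a homeobox gene induced by retinoic acid, had 0 reads in E14 and 18 in the mutant, at least 8.95-fold higher against 3 reads in the library. Lrat, which esterifies retinol for storage, had 31 and 0 reads, at least 6.92-fold lower. Rxrg, the RXR gene of lowest level in both libraries, had 53 and 129 reads (0.785 and 2.85 TPM).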
